A study of Mus musculus with 2 samples.

Results

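Il6st, Stat3, Tfcp2l1 and Nr5a2, genes of the LIF-STAT3 axis and of naive pluripotency, each had a macroH2A1 peak in mouse embryonic stem cells. All 4 peaks lay upstream of the gene, between 11.0 and 72.0 kb from its start. The genes were chosen because the deposited macroH2A1 peak list assigned them a peak, so having a peak was the choice itself and not a result. Each had 1 row, which makes 4 of the 2560 rows of the list and 4 of its 2132 assigned genes. Pou5f1 and Nanog, looked up in the same way, had no row.

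The peaks come from a chromatin immunoprecipitation and sequencing (ChIP-seq) experiment in E14, an established mouse embryonic stem cell line. The first library was made with an antibody raised against a fragment of mouse macroH2A1, and the other with non-specific IgG. Both came from untreated E14 cells with no genetic change named in the labels, kept on gelatine in medium with 20% serum and leukemia inhibitory factor (LIF) at 1000 U/ml. There is 1 library per antibody from 1 cell line, so no spread between cultures can be given and no test was made. The list holds positions, sizes and gene assignments with no read count or enrichment, so the depth is unknown, nothing can be said of how strong a peak is, and markers of the cell type could not be checked. No values of the IgG library were analysed here.

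MacroH2A1 is a variant of histone H2A that carries a large macrodomain, and it is best known from the inactive X chromosome and from other silent chromatin. LIF keeps mouse embryonic stem cells self-renewing. It binds a receptor pair of Lifr and Il6st (gp130), JAK kinases bound to the receptor phosphorylate Stat3, and Stat3 then enters the nucleus and activates its targets. Tfcp2l1, a transcription factor of the grainyhead family, is among the targets through which Stat3 sustains the naive state. Nr5a2 (LRH-1) is an orphan nuclear receptor that helps to maintain Pou5f1 expression.

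The 250 bases before the RefSeq start of each of the 4 genes are shown because the distances between a gene and its peak are counted from the gene start, and none of the 4 peaks reached a start. The sequences are from RefSeq, build GRCm38.p6, each on the strand of its gene, and all 4 genes were found in that table. This build is later than the mm9 of the peaks, so the 2 sets of coordinates cannot be subtracted. The stretches are chr13:112463820-112464069 (+) for Il6st, chr11:100939541-100939790 (-) for Stat3, chr1:118627695-118627944 (+) for Tfcp2l1 and chr1:136960449-136960698 (-) for Nr5a2. For Nr5a2, which has more than 1 listed start, the outermost was taken. Capitals mark the dinucleotide CG, read 5′ to 3′ (the same on both strands).
Il6st: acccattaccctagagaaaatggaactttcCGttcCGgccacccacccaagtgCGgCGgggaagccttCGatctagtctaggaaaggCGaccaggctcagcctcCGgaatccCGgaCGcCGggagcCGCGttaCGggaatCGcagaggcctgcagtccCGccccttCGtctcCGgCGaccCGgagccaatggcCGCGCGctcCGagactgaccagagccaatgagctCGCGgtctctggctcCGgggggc
Stat3: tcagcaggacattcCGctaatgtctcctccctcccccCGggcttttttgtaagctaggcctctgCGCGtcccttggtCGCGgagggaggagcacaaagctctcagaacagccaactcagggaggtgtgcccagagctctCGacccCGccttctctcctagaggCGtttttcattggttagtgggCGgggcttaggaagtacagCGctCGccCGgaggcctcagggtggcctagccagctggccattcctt
Tfcp2l1: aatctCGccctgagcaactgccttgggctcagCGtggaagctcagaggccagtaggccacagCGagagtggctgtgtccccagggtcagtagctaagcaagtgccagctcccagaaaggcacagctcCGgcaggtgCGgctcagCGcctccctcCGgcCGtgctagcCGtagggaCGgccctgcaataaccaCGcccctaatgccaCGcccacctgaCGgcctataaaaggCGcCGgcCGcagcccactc
Nr5a2: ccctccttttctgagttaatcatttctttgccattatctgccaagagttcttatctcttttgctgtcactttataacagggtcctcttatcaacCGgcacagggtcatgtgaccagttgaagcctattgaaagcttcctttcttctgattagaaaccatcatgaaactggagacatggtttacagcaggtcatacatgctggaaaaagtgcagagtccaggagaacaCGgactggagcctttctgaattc

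The 4 starts differed in base composition. Il6st had 26 CG dinucleotides in 250 bases, Tfcp2l1 had 16 and Stat3 had 13, against a median of 10 over the same stretch of 17274 protein-coding genes (interquartile range 3 to 19). Nr5a2 had 2, and 23.1% of those genes had as few or fewer. The STAT-type motif TTCNNNGAA, which reads the same on both strands, was in none of the 4 stretches and in 6.72% of all of them. The sequence under the peaks themselves was not analysed here.

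Il6st, the shared signal-transducing receptor of the interleukin-6 family of cytokines, had the most distant peak. It lay on chromosome 13 at 113181100 to 113182300 (mm9), and the gene runs on the plus strand from 113254317 to 113297049. The gap between the peak and the gene start was 72.0 kb, which is 1.69 times the length of the gene itself (42.7 kb). The peak was narrow, at 1201 bp, and 18.0% of the rows had that width or less. Ankrd55 and Il31ra are the nearest protein-coding neighbours of Il6st in RefSeq, with Ankrd55 on the side of the peak, and neither had a row.

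Stat3, the transcription factor at the end of the LIF signal, had the closest peak. Its peak lay on chromosome 11 at 100811750 to 100813350, 11.0 kb before the start of the gene, which runs on the minus strand from 100800718 down to 100746412. Only 25.8% of the rows lay as close to their gene start or closer. The peak was 1601 bp wide, slightly above the median of 1551 bp over all rows. The row names LOC100045296 beside Stat3, and the list does not say how that entry differs from Stat3. Stat5a and Stat5b, the STAT genes next to Stat3, had no row, and neither did Cavin1, the neighbour on the side of the peak.

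Tfcp2l1 was listed under its older symbol Tcfcp2l1. Its peak lay on chromosome 1 at 120492300 to 120493350, and the gene runs on the plus strand from 120524527 to 120579448. The gap of 31.2 kb was close to the median of all rows (32.2 kb). With 1051 bp it was at the minimum width of the list, a width that 148 rows shared and below which there was none. Clasp1, the neighbour on the side of the peak, had no row, whereas Gli2 on the other side had 1.

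Nr5a2 had a peak on chromosome 1 at 138897850 to 138899450, 40.8 kb before the start of the gene, which runs on the minus strand from 138857004 down to 138740853. At 1601 bp it had the same width as the Stat3 peak, a width found in 154 rows. Nr5a2 is the longest of the 4 genes (116 kb in the list), and no peak lay inside it. Ptprc, the neighbour on the side of the peak, and Zfp281 on the other side, which encodes a zinc finger factor of pluripotent cells, had no row.

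In order of distance the genes stood as Stat3 (11.0 kb), Tfcp2l1 (31.2 kb), Nr5a2 (40.8 kb) and Il6st (72.0 kb), and these gaps differed by far more than the 50 bp grid on which all peak edges lie. All 4 rows were of the authors' class upstream, which held 51.4% of all rows. All 4 also lay more than 10 kb from the gene start, as did 76.4% of all rows, and 38.5% of all rows shared both properties. Each gene had a single row, and 70.9% of all rows belonged to such genes. Having 4 of 4 rows upstream is a description of genes chosen from the list, and nothing particular to them follows from it. Each row of the list gives its peak to the gene with the nearest start. Whether a peak lies in the body of the neighbour cannot be read from these rows.

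**Figure D1:**
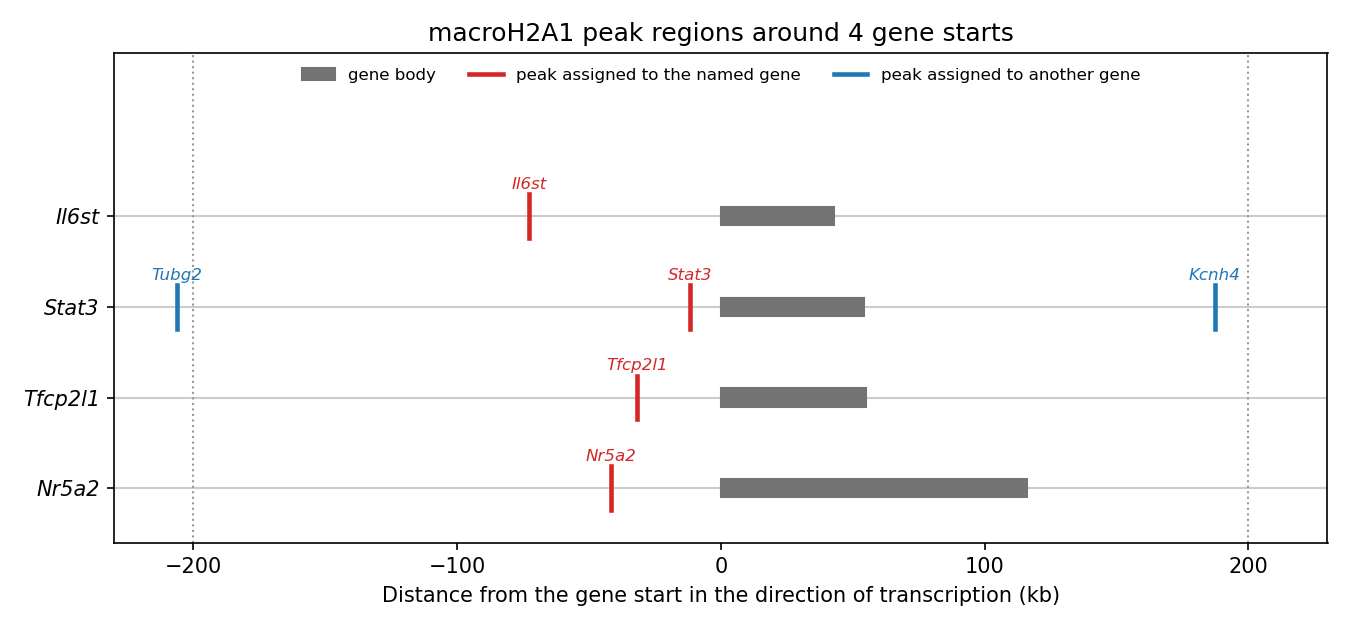
Peak regions around the starts of Il6st, Stat3, Tfcp2l1 and Nr5a2, drawn to scale by distance from the gene start in kb, with negative values upstream; grey boxes are gene bodies, red bars the peak assigned to the gene, blue bars peaks assigned to other genes, and dotted lines mark 200 kb. The red bars stand at 11.0 to 72.0 kb upstream, and within 200 kb the Kcnh4 peak on the Stat3 row is the only other bar.

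Within 200 kb of the 4 gene starts there were 5 peak regions, of which 4 were the genes' own. The fifth lay near Stat3, 187 kb downstream of its start, inside Kcnh4, which encodes a voltage-gated potassium channel (chromosome 11, 100612850 to 100614050, 1201 bp). Stat3 therefore had 2 regions in its window, and Il6st, Tfcp2l1 and Nr5a2 had 1 each. Among the 2132 assigned genes of the list, 56.5% had exactly 1 region within 200 kb of their start and 25.0% had 2. Just outside the window, 206 kb upstream of the Stat3 start, lay a peak of 1201 bp assigned to Tubg2, a gamma-tubulin gene.

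Beyond 200 kb the surroundings differed. Downstream of Tfcp2l1 a peak assigned to Gli2, a transcription factor of the Hedgehog pathway, lay 514 kb from the Tfcp2l1 start, and a pair assigned to Inhbb, an activin subunit gene, lay 729 and 744 kb from it. The Gli2 peak is 88.7 kb upstream of Gli2, and both Inhbb peaks are downstream of Inhbb. On the downstream side of Nr5a2, a pair of regions stood 408 and 412 kb from its start, both assigned to ENSMUSG00000079285, a gene without a symbol. Around Il6st the nearest other region was assigned to Mier3, 786 kb upstream of the Il6st start.

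Measured from peak to peak, the Il6st region was 713 kb from its nearest neighbour, the Tfcp2l1 region 546 kb, the Nr5a2 region 449 kb and the Stat3 region 193 kb. The median over all 2558 distinct regions was 224 kb, so the first 3 were more isolated than the median region and the Stat3 region was somewhat less. None was extreme, since 19.5% of all regions were at least as isolated as that of Il6st.

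**Figure D2:**
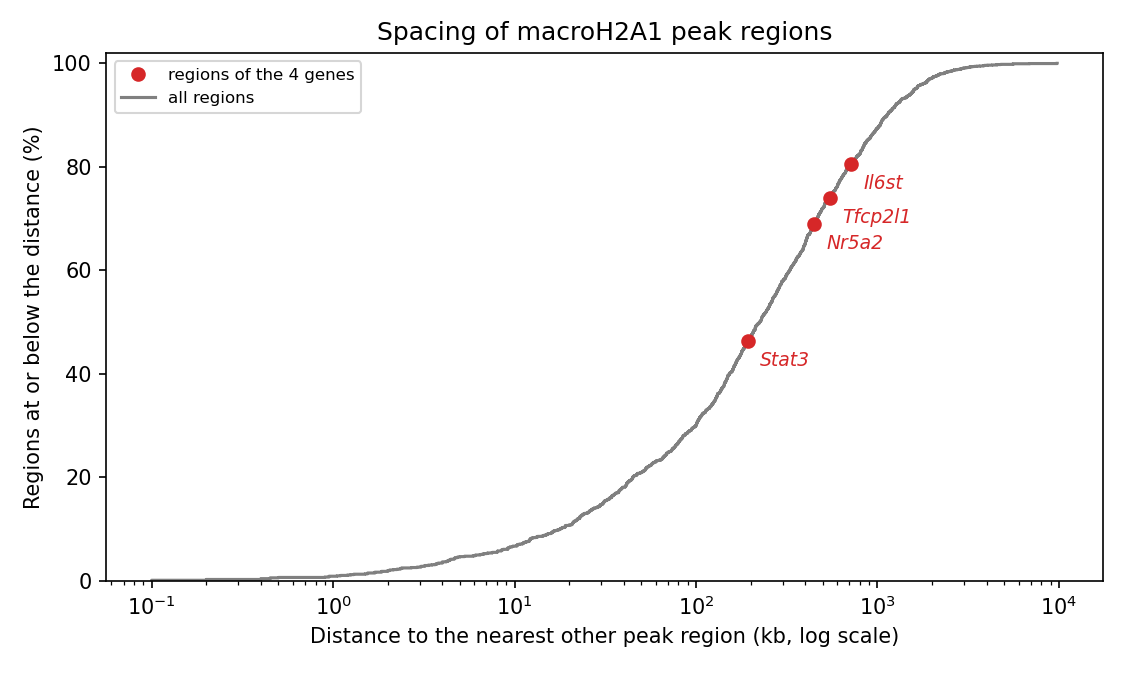
Cumulative share of all 2558 regions (grey line, %) against the distance to the nearest other region on the same chromosome (kb, log scale), with the regions of the 4 genes as red points. The Stat3 point (193 kb) lies below the median of 224 kb, and the Nr5a2, Tfcp2l1 and Il6st points (449, 546 and 713 kb) lie above it.

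The share of LIF pathway genes with a row was near that of all genes. Of 43 genes of the LIF, JAK and STAT pathway, 4 had a row (9.30%, against 6.16% of 21631 protein-coding genes), and 3 of these were Il6st, Stat3 and Tfcp2l1 themselves. Without the 4 chosen genes, 1 of 40 had a row (2.50%). With so few genes, neither share is a result about the pathway, and a group of a few genes with no row is common at 6.16%. That gene was Pim1, a serine/threonine kinase gene that Stat3 activates in stem cells. None of the 4 ligand genes had a row, Lif among them, and of the 5 receptor genes only Il6st did, so its partner Lifr had none. The 4 JAK kinase genes, the 12 inhibitor genes (Socs3, the feedback inhibitor of the pathway, among them) and the phosphatase gene Ptpn11 also had no row. Of the 7 STAT genes Stat3 alone had a row, and of the 10 downstream genes Pim1 and Tfcp2l1 did, while Klf4, Gbx2 and Myc did not.

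Pim1 differed from the 4 genes in having peaks on both sides. The first lay 18.5 kb upstream of the gene start on chromosome 17 (29608000 to 29609300, 1301 bp). The other lay 10.4 kb past the start, downstream of the gene (29638150 to 29641000), and was 2851 bp wide, with 99.1% of rows at that width or less. The pair stood 28.9 kb apart, whereas the regions of the 4 genes had no other region closer than 193 kb.

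Among 34 pluripotency genes 10 had a row, and without the 4 chosen genes 6 of 30 did (20.0%, against 6.16% of protein-coding genes). These 6 were Sox2, Tbx3, Sall1, Mycn, Tcf7l1 and Jarid2. The list was compiled with earlier results of these data known, so its share is no independent evidence. The 6 genes had 9 rows, of which 6 were upstream and 3 downstream, and their median distance was 69.6 kb with a median width of 1551 bp. Sall1, a zinc finger factor gene, had a pair of wide downstream peaks (2251 and 2101 bp), both wider than any of the 4 peaks upstream of Il6st, Stat3, Tfcp2l1 and Nr5a2. Jarid2, a cofactor of the Polycomb complex PRC2, had a narrow upstream peak of 1251 bp at 133 kb, and its nearest other region was 440 kb away. Tcf7l1, a repressor that acts against the naive network, and Mycn each had a peak closer to the start than any of the 4 (3.15 and 3.31 kb). Esrrb, Klf2, Klf4, Klf5, Prdm14 and Zfp42, further factors of the naive state, had no row.

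**Figure D3:**
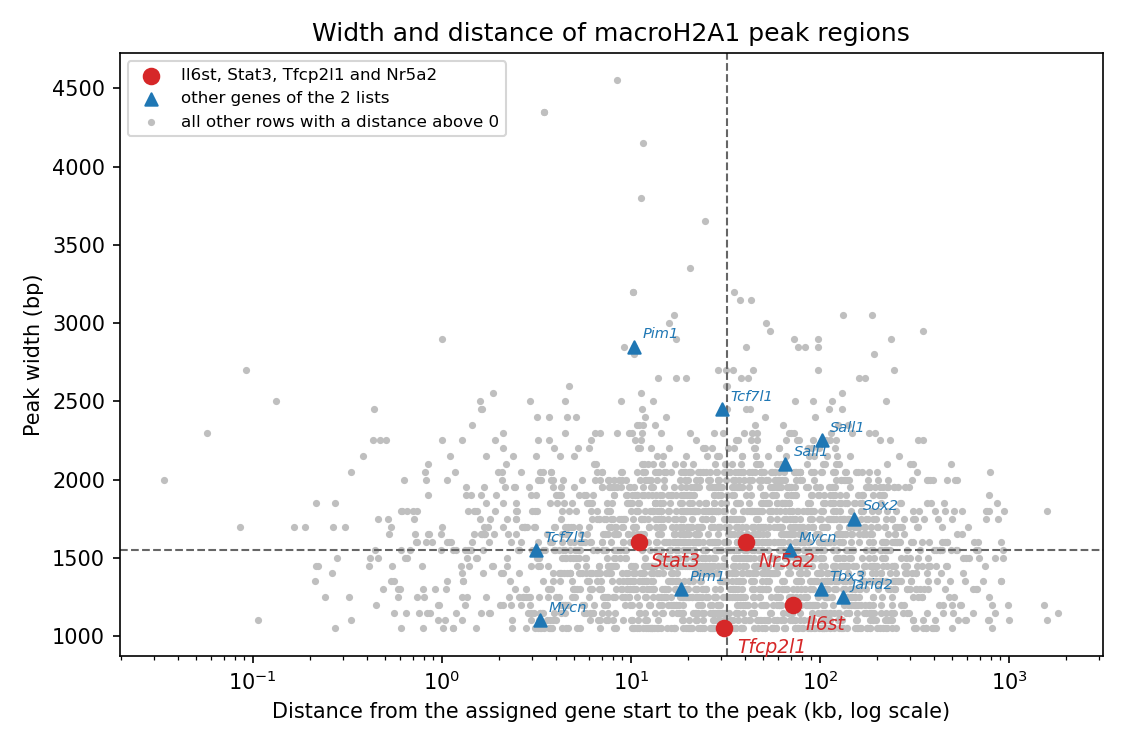
Peak width in bp against the distance from the assigned gene start in kb (log scale) for Il6st, Stat3, Tfcp2l1 and Nr5a2 (red), the other genes of the LIF and pluripotency lists (blue triangles) and all other rows with a distance above 0 (grey); dashed lines are the medians of all rows, 1551 bp and 32.2 kb. The 4 red points lie at 1601 bp or less. Pim1, Tcf7l1 and Sall1 have peaks of 2101 bp or more, and the Sox2 peak is 1751 bp wide. Pim1 and Tcf7l1 also have narrower peaks (1301 and 1551 bp), and no peak of Tbx3, Mycn or Jarid2 is wider than 1551 bp.

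Pou5f1 and Nanog, the core pluripotency factors, had no row under their symbols or any RefSeq synonym. Dppa3 and Slc2a3, which adjoin Nanog in RefSeq, had none. Among the 10 protein-coding genes on either side of Pou5f1, only Mucl3 had a row, 7 genes away and listed under its older symbol Dpcr1, with a peak downstream of that gene on chromosome 17 (35751850 to 35753300, 1451 bp). For comparison, the same count was 1 of 20 neighbours for Il6st, 2 for Stat3, 2 for Nr5a2 and 3 for Tfcp2l1. With 6.16% of protein-coding genes in the list, most genes have no row. Lacking a row says only that no called peak was listed under that gene's name. No 200 kb window was taken around Pou5f1 or Nanog, because the list gives positions only for the genes it assigns. A peak assigned to a neighbour may therefore lie within that distance of either start. The narrowest rows are 1051 bp wide, and whether narrower peaks were left out of the list is not known. A further limit is that 34.8% of the rows give an Ensembl gene without a symbol. Genes were matched by symbol and not by Ensembl identifier or position. A gene of either list among those rows would therefore have been missed, Pou5f1 and Nanog included.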

How the data were processed

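ChIP-seq of macroH2A1 and IgG was made in E14 cells, 1 library each. Per the submitters' processing notes, Bowtie aligned the reads to NCBIM37 (mm9). The peak names begin with CCAT and the columns are those of ChIPpeakAnno, per the file headers. No source used here gives the version, threshold or control of the caller. The authors deposited positions, widths and 1 gene per row, assigned by the nearest start. The 2560 rows hold 2558 distinct regions, so a region can be listed more than once.

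Here Python 3.11.15 with pandas 2.3.3 was used, and the geometry was tested on simulated data. Distance is counted between the gene start and the closest edge of the peak. Genes were matched by symbol or RefSeq synonym (GRCm38.p6) on the same chromosome. The plan had taken entries equal to the symbol, which misses Stat3 (a double entry) and Tfcp2l1 (an older symbol), so that setting became the alternative. RefSeq gave only names, neighbours and the promoter sequences. The members and lists were chosen with earlier results of these data known. Genes named were the 4 members, Pou5f1, Nanog, list genes with a row and genes of peaks within 200 kb of a member's start. List genes without a row, genes beyond 200 kb and the neighbours were added after their values were seen. A result on 1 neighbouring gene is not reported here.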

Additional observations from a re-analysis of the deposited data

How the results depend on the processing

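Of 55 alternative values, 41 stayed within 1.5 times the count, 10 percentage points of a rank or 1 peak width of a distance. Those that moved were all counts. Taking the peak midpoint or the size of the deposited distance moved each of the 4 distances by less than the width of its peak. The range was 11.0 to 11.8 kb for Stat3 and 72.0 to 73.2 kb for Il6st, and all 4 midpoints lay upstream. Both outcomes were fixed in advance, because every setting measures to a point of the same peak and all 4 peaks lie wholly upstream. These settings are among the 41 values that stayed, and they are no check of the distances or sides. With entries equal to the symbol, 2 rows were found for the 4 genes, and 3 when any of several symbols could match. With windows of 500 kb there were 8 regions around the 4 starts in place of 5, and 2 among peaks wider than the median. Genes of the LIF, JAK and STAT list with a row numbered 2 among wider peaks, 2 with entries equal to the symbol and 1 without the 4 genes, in place of 4. Pluripotency genes with a row numbered 5 among wider peaks, 5 within 50 kb of the start and 6 without the 4 genes, in place of 10. The settings without the 4 genes and, for the lists, with entries equal to the symbol were chosen after seeing the data. These changes follow from fewer peaks, genes or matches, or a longer window. No paired analysis was possible because each antibody has 1 library. With no read counts, depth limits every statement on a missing peak by an unknown amount.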

Other observations

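Each peak name ends in a number of unstated meaning, which was 569 for Nr5a2, 1555 for Il6st, 1804 for Tfcp2l1 and 1921 for Stat3. For the other genes of the 2 lists it ran from 20 (the farther Tcf7l1 peak, 2451 bp wide) to 2218 (the upstream Pim1 peak, 1301 bp wide), a range that holds all 4. Across the neighbourhoods, the Mier3 and Tubg2 rows, like the Stat3 row, list a second symbol that begins with LOC. In the whole list 111 rows have more than 1 symbol of any kind.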
